A study of Caenorhabditis elegans with 5 samples.

Results

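The subject here is the set of H3K36me3 regions on chromosome V of Caenorhabditis elegans. The peaks of 4 chromatin immunoprecipitation sequencing (ChIP-seq) libraries were merged wherever they overlapped by 1 bp or more, which gave 7653 regions in the genome, and the 1031 that lay on chromosome V were kept. They were divided by the position of their midpoint into 535 in the centre of the chromosome, from 5.897 to 16.550 Mb, 259 in the left arm and 237 in the right arm. Every sample was made from starved first-stage (L1) larvae, collected whole, with 600 larvae pooled per sample. There were 2 wild-type libraries of strain N2 and 2 libraries of the double mutant spr-5 (by101); met-2 (n4256), whose mutations lie on chromosomes I and III. A further library, the input of wild-type replicate 2, was not analysed here. The worms were grown on OP50 bacteria at 20 °C without further treatment, and the age of the larvae is given only as the stage. The lists hold neither genes nor levels, so the loss of spr-5 and met-2 was not checked. Nothing in the labels says that replicates came from separate cultures, so the spread between them may be technical.

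H3K36me3 is a histone mark laid down over the bodies of transcribed genes. In worms, the methyltransferase MET-1 adds it during transcription, and MES-4 maintains it on genes that were active in the parental germline. SPR-5 removes methylation from H3K4 and MET-2 adds methylation to H3K9, and the study asked how the mark is distributed in progeny that lack both. Chromosome V is the longest worm chromosome. Like the other autosomes it has a centre with little recombination and with many broadly expressed genes, and arms rich in repeats, H3K9 methylation and contacts with the nuclear envelope. It is also known for large families of chemoreceptor genes, many of them in the arms. The positions are those of the ce10 build, which the submitters' processing notes name. Gene positions in that build were not used here, so no gene is assigned to a region.

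The lists differed in length by replicate number, and in replicate 2 also between the genotypes, before any division of the chromosome. Wild-type replicate 1 had 728 peaks on chromosome V and spr-5; met-2 replicate 1 had 783, against 514 in wild-type replicate 2 and 248 in spr-5; met-2 replicate 2. A list holds positions without a height or a score, so a region counts as called in a library or not called. The read depth of the libraries is unknown. The larvae were assayed whole, so a mark in fewer cells and a weaker mark in each cell cannot be told apart.

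The regions formed a broad central block, troughs on both sides of it, and a rise again at both ends of the chromosome. Counted in bins of 1 Mb from the left end, the merged regions covered 9.82% of the bases between 13 and 14 Mb, the highest value of any bin, and 2.86% between 3 and 4 Mb, the lowest. From 2 to 4 Mb, wild-type replicate 1 covered 2.20% and 1.74% of the 2 bins, wild-type replicate 2 covered 0.272% and 0.232%, spr-5; met-2 replicate 1 covered 2.85% and 2.45%, and spr-5; met-2 replicate 2 covered 0.0471% and 0.0638%. That trough was present in all 4 lists. A second low stretch ran from 15 to 20 Mb, where the merged regions covered 4.24% to 5.91% of each bin and which began inside the centre. On the other side the block reached into the left arm. The merged regions covered 8.87% of the bin from 4 to 5 Mb, against 6.08% of the central bin from 8 to 9 Mb.

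**Figure D1:**
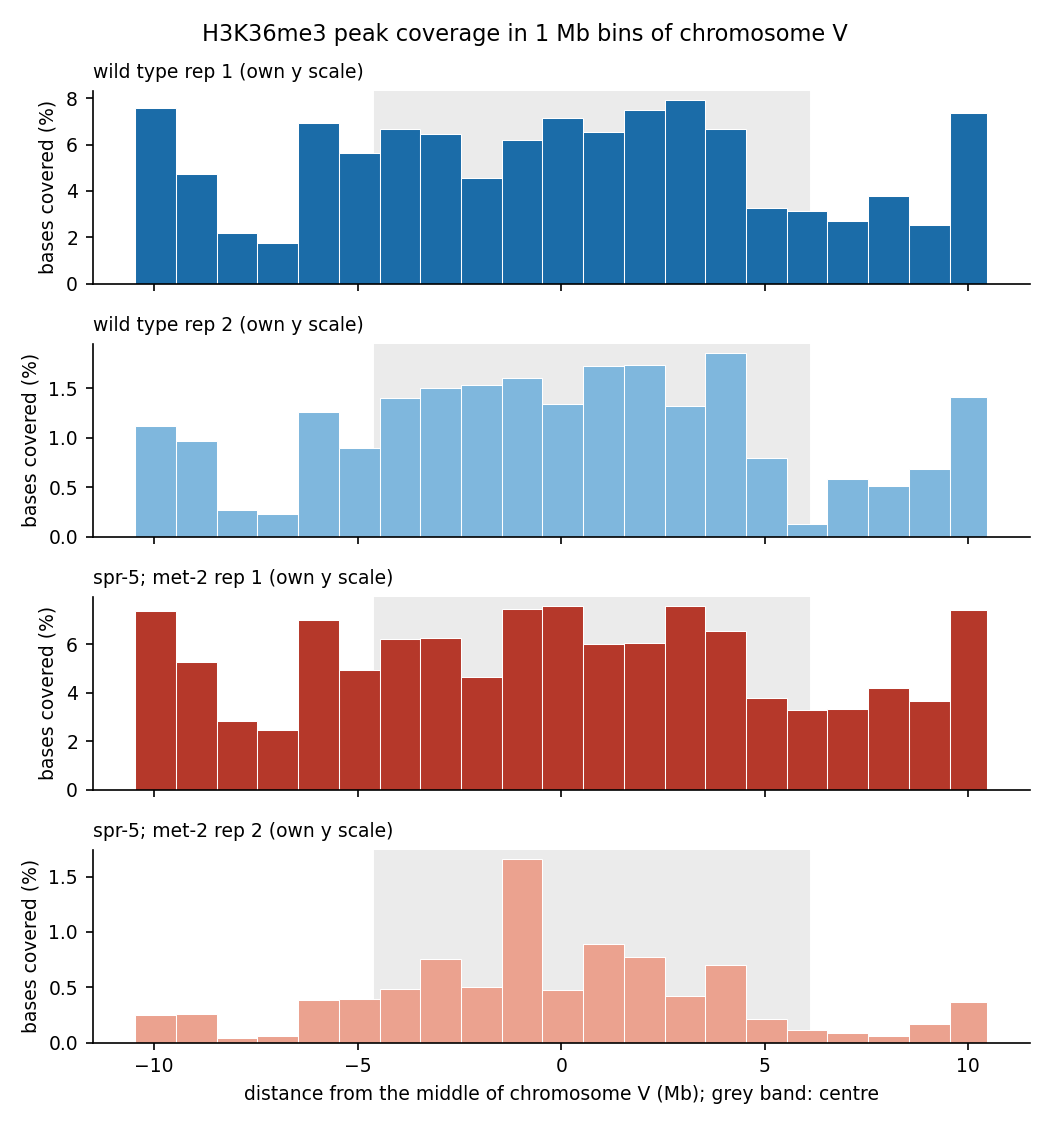
Percentage of bases covered by peaks in bins of 1 Mb along chromosome V (x axis: distance of the bin from the middle of the chromosome in Mb; y axis: percent covered, with a separate scale for each library; the grey band marks the centre and the last bin is shorter). In every list the bins from 2 to 4 Mb from the left end are low, the last bin is higher than the one before it, and the first bin is higher than the next one in all but spr-5; met-2 replicate 2; the highest bin of spr-5; met-2 replicate 2 reaches 1.66%.

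The first comparison asked whether the centre carried more of the mark than the arms. Of the merged regions, the centre held 50.2 per Mb and both arms together 48.3 per Mb. The arms lay on both sides of the centre, with 43.9 per Mb in the left and 54.2 per Mb in the right. The bases were less even. Regions covered 7.67% of the centre, 6.32% of the left arm and 5.83% of the right arm. Against both arms together the difference lay mainly in width. The median was 711 bp in the centre and 319.5 bp in the arms, with 421 bp in the left and 262 bp in the right. Regions of 2000 bp or more made up 26.9% of the central regions (144 of 535) and 20.0% of the arm regions (99 of 496), whereas regions under 500 bp made up 46.4% and 56.0%.

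Within single lists the centre was ahead in each of the 4 libraries. In wild-type replicate 1, peaks covered 6.11% of the centre and 4.44% of the arms, a ratio of 1.38, and in wild-type replicate 2 they covered 1.40% and 0.763%, a ratio of 1.84. In spr-5; met-2 replicate 1 they covered 6.01% and 4.81%, a ratio of 1.25, and in spr-5; met-2 replicate 2 they covered 0.656% and 0.202%, a ratio of 3.25. The ratio was thus larger in both short lists (replicate 2) than in both long ones (replicate 1). The mean log2 ratio was 0.84 ± 0.62 (SD, n = 4 libraries), positive in 4 of 4 libraries (exact two-sided sign-flip permutation test over libraries, p = 0.125, the smallest that 4 libraries allow).

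The number of peaks per Mb gave a smaller contrast. It was 38.5 in the centre and 31.0 in the arms in wild-type replicate 1, and 27.4 and 21.6 in wild-type replicate 2. It was 15.0 and 8.57 in spr-5; met-2 replicate 2, but 38.02 and 36.8 in spr-5; met-2 replicate 1. In that last list the right arm, with 40.2 peaks per Mb, was denser than the centre. The mean log2 ratio of the densities was 0.38 ± 0.32 (SD, n = 4; exact sign-flip permutation test, p = 0.125).

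By median width, peaks were wider in the centre in every list. In wild-type replicate 1 their median width was 1044.5 bp in the centre and 630.5 bp in the arms, and in spr-5; met-2 replicate 1 it was 998 and 585 bp. In these lists the left arm was nearer the centre, with 887.5 and 780.5 bp, against 339 and 423 bp in the right arm. By mean width, wild-type replicate 1 had 1590.88 bp in the left arm and 1588.22 bp in the centre. The replicate 2 lists had short peaks throughout, with medians of 191 and 148 bp for wild-type larvae and 182 and 129 bp for mutant larvae. The mean log2 ratio of the medians was 0.59 ± 0.19 (SD, n = 4; exact sign-flip permutation test, p = 0.125). Among peaks of at least 500 bp it was 0.11 ± 0.18 and positive in 3 of 4 libraries (exact sign-flip permutation test, p = 0.375), with wild-type replicate 1 wider in the arms. Inside each list the centre held a larger share of the widest 25% of peaks than of the narrowest. Of the narrowest 25% of peaks in each list, the centre held 46.2% and 43.4% in wild-type replicates 1 and 2 and 45.9% and 50.0% in the mutant, and of the widest 25% it held 58.8%, 68.0%, 60.5% and 77.4%. The rise between them was not steady. In wild-type replicate 1 the next 2 groups of 25% stood at 57.1% and 63.2%, the latter above the widest group, and in spr-5; met-2 replicate 1 the 2 narrower groups were level at 45.9%.

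**Figure D2:**
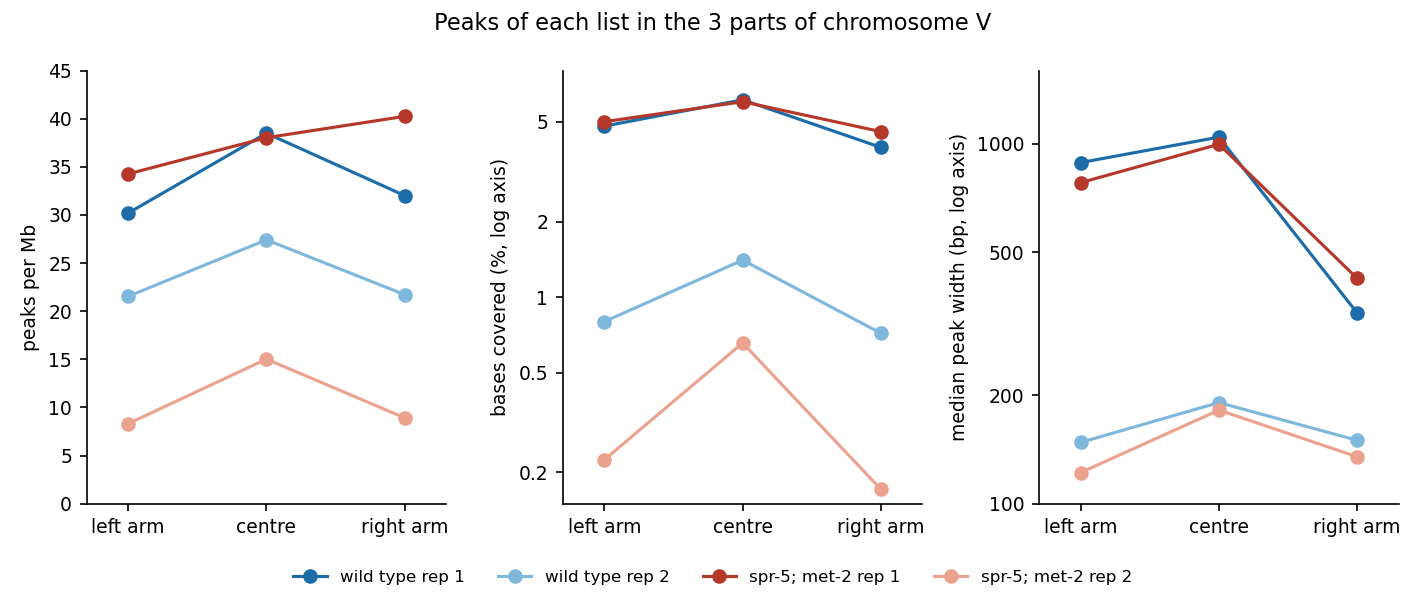
Peaks per Mb, percentage of bases covered (log axis) and median peak width in bp (log axis) in the left arm, the centre and the right arm of chromosome V; each point is 1 library and lines join the values of a library. Coverage and width are highest in the centre in all 4 libraries, and peaks per Mb in 3 of 4, the exception being spr-5; met-2 replicate 1 with 40.2 in the right arm.

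The next comparison asked how often a region was found again. On the whole chromosome, 168 of the 1031 regions were called in all 4 lists (16.3%), beside 16.9% of all regions in the genome, and 462 (44.8%) in a single list, beside 45.6% in the genome. These shares were close to those of the genome. The parts of the chromosome differed from each other. In the centre 107 of 535 regions were called in all 4 lists (20.0%, Wilson 95% interval 16.8 to 23.6%), against 61 of 496 in the arms (12.3%, interval 9.69 to 15.5%). Single-list regions made up 39.4% of the centre (interval 35.4 to 43.6%) and 50.6% of the arms (interval 46.2 to 55.0%). The right arm stood lowest, with 23 of 237 in all 4 lists (9.70%) and 129 in 1 list (54.4%). Intervals of this kind cover counting error only, and regions of 1 library are not replicates.

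By library, wild-type replicate 1 called 72.5% of the central regions and 60.1% of the arm regions, and wild-type replicate 2 called 47.5% and 38.7%. The shares were 27.3% and 17.1% in spr-5; met-2 replicate 2, and 72.9% and 72.4% in spr-5; met-2 replicate 1. The centre was ahead by 7.97 ± 5.19 percentage points (SD, n = 4; exact sign-flip permutation test, p = 0.125), with a lead of 0.518 points in spr-5; met-2 replicate 1 and of 8.77 to 12.4 points in the other libraries. The regions were merged from these same lists, so the shares of the libraries depend on each other and the test does not treat independent values. Regions called by spr-5; met-2 replicate 1 alone made up 24.6% of the arm regions and 14.4% of the central ones. They lower the arm share of every other library. When a region counted as called only if peaks covered at least 50% of it, the lead was 1.77 ± 6.27 points (exact sign-flip permutation test, p = 0.875), and wild-type replicate 2 and spr-5; met-2 replicate 1 called a larger share of the arm regions. Regions called by the replicate 1 libraries of both genotypes alone were about as frequent in centre and arms, 89 in the centre (16.6%) and 85 in the arms (17.1%), beside 18.2% in the genome.

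The gap between centre and arms in calls by all 4 lists was found among wide regions. The width of a region is set by the lists themselves, mostly by the replicate 1 lists, so these shares describe the lists. Of regions 2000 bp or wider, 76 of 144 were called in all 4 lists in the centre (52.8%, interval 44.7 to 60.8%) and 32 of 99 in the arms (32.3%, interval 23.9 to 42.0%). Under 500 bp the shares were 6.05% and 7.19%, and from 500 to under 2000 bp they were 11.2% and 7.56%, with overlapping intervals in both classes. Calls by a single list divided differently over the widths. From 500 to under 2000 bp they were 14.0% of the central regions (20 of 143) and 25.2% of the arm regions (30 of 119), under 500 bp 77.0% and 78.4%, and at 2000 bp or wider 0 of 144 and 3 of 99. Almost all wide regions were in the replicate 1 lists, 144 of 144 in the centre in both and 96 and 99 of 99 in the arms in wild type and mutant. The replicate 2 lists separated the parts. Wild-type replicate 2 called 82.6% of the wide central regions (interval 75.6 to 88.0%) and 61.6% of the wide arm regions (interval 51.8 to 70.6%), and spr-5; met-2 replicate 2 called 58.3% (interval 50.2 to 66.1%) and 37.4% (interval 28.5 to 47.2%).

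**Figure D3:**
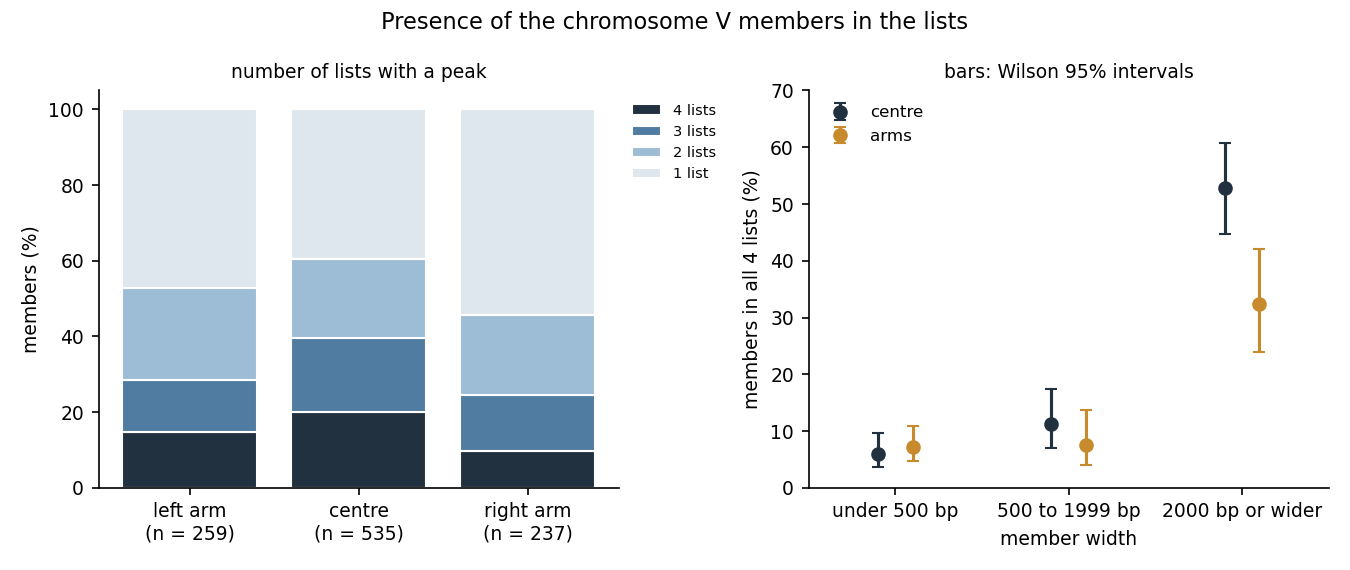
Left, percentage of the regions of each part of chromosome V that have a peak in 1, 2, 3 or 4 lists. Right, percentage called in all 4 lists by region width, for the centre and both arms together, with Wilson 95% intervals; the intervals of centre and arms separate at 2000 bp or wider (52.8% against 32.3%).

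The widest regions shared by all lists showed how far a region shrank from the long to the short lists. The widest central one, at V:7225607-7238067, measured 12461 bp. Wild-type replicate 1 covered 12447 bp of it, wild-type replicate 2 covered 4144 bp, spr-5; met-2 replicate 1 covered 9848 bp and spr-5; met-2 replicate 2 covered 502 bp. The order of the lists by covered length was the same in the next 2 central regions, at V:7572307-7583663 (11357 bp) and V:11110933-11121342 (10410 bp), where spr-5; met-2 replicate 2 covered 530 and 830 bp. In the arms, the widest region of the whole chromosome lay at V:349150-363156, 14007 bp wide. It was covered over 10696 and 10488 bp in the replicate 1 lists of wild type and mutant but over 282 and 129 bp in the replicate 2 lists. The region at V:20263788-20272771 (8984 bp) kept 1383 bp in the wild-type replicate 2 list but 70 bp in that of spr-5; met-2, and the one at V:1866500-1875342 (8843 bp) kept 4567 and 357 bp.

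A central region at V:9338838-9346888 behaved differently, and was picked out after its values were seen. It held the widest chromosome V peak of both replicate 2 lists, 5319 bp wide for the wild type and 5225 bp for the mutant. The 4 lists covered 8051, 6316, 8031 and 5881 of its 8051 bp, in the order wild-type replicates 1 and 2, mutant replicates 1 and 2. It lay in the bin from 9 to 10 Mb, the single bin of 21 in which spr-5; met-2 replicate 2 covered more than wild-type replicate 2, with 1.66% against 1.61%. Among the replicate 1 lists the mutant was higher in 13 of the 21 bins.

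The widest regions called in a single list all came from spr-5; met-2 replicate 1, the longest list, and all lay in the arms. They were V:5718077-5721126 (3050 bp), V:17986150-17989027 (2878 bp) and V:20405721-20407987 (2267 bp). Of the 4 regions next to the borders that define the parts, 1 was wide and the others were called once. The last region before the left border, V:5840340-5845234, measured 4895 bp and was called in 3 lists, over 4895, 45 and 4737 bp in wild-type replicates 1 and 2 and mutant replicate 1, with its midpoint 54.2 kb from the border, and the first one after it, V:5914204-5914311, in 1 list at 17.3 kb. At the right border the neighbours were V:16544860-16544981 and V:16553910-16554054, both called in 1 list, at 5.08 and 3.98 kb. None of these 4 regions crossed a border.

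The longest stretch without any region, 328.7 kb from 16027215 to 16355874, lay inside the centre near its right border. The next 2 lay in the arms, 278.7 kb from 363157 to 641903, which begins where the widest region of the chromosome ends, and 232.0 kb from 17537939 to 17769898. Stretches over 100 kb numbered 12 in the left arm, 15 in the centre and 8 in the right arm. Over all gaps, these long ones included, the arm regions were closer together, with a median gap of 3.84 kb against 5.83 kb in the centre.

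Coverage was higher in the left arm than in the right in each list. It was 4.80% and 3.95% in wild-type replicate 1, 0.798% and 0.717% in wild-type replicate 2, 5.00% and 4.56% in spr-5; met-2 replicate 1, and 0.224% and 0.171% in spr-5; met-2 replicate 2. The mean log2 ratio was 0.24 ± 0.12 (SD, n = 4; exact sign-flip permutation test, p = 0.125). With the centre enlarged by 0.5 Mb at each border it was 0.08 ± 0.18 (exact sign-flip permutation test, p = 0.375), and wild-type replicate 2 was then higher in the right arm. Neither arm was uniform. The outer 1 Mb of both arms together was covered to 7.61% and 7.48% in the replicate 1 lists (wild type, mutant) and to 1.24% and 0.298% in the replicate 2 lists, against 3.67%, 4.17%, 0.649% and 0.178% in the rest of the arms. The ends were thus ahead of the rest of the arms in all 4 lists. They also exceeded the centre in the replicate 1 lists and stayed below it in the replicate 2 lists. These zones were chosen after the profile was seen and were not tested. At the very ends, the first region (V:37-109) and the last (V:20924002-20924107) were called in spr-5; met-2 replicate 2 only.

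Set against the other autosomes, chromosome V was sparse. It made up 20.9% of the span of the 6 chromosomes and held 13.5% of the regions. Coverage was 5.29% against 11.7% on chromosomes I to IV together in wild-type replicate 1, 1.09% against 2.48% in wild-type replicate 2, 5.42% against 12.4% in spr-5; met-2 replicate 1 and 0.433% against 1.01% in spr-5; met-2 replicate 2. The ratio was nearly constant over the lists, at 0.427 to 0.452 (mean log2 ratio -1.19 ± 0.03, SD, n = 4; exact sign-flip permutation test, p = 0.125). The X was covered less than V in each list, at 3.31% and 0.582% in wild-type replicates 1 and 2 and 2.44% and 0.368% in the mutant ones. Regions per Mb numbered 49.3 on V, 71.1 on IV, 76.8 on II, 114 on III, 120.2 on I and 46.8 on the X. The fewer peaks were not narrower throughout. Their median on V was 841 bp in wild-type replicate 1, between the 690.5 bp of chromosome I and the 1041 bp of chromosome II, whereas in wild-type replicate 2 the 164.5 bp on V were below the 182 to 205 bp of chromosomes I to IV.

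The contrast between middle and ends was compared between chromosomes with the middle 50% of each span in place of the centre, a definition chosen after the data were seen. On V the middle was covered 1.54 and 2.19 times as much as the rest in wild-type replicates 1 and 2, and 1.41 and 3.82 times in the mutant ones. The highest ratio among chromosomes I to IV in the same libraries was 1.42, 1.61, 1.21 and 2.12. The X went the other way in all 4 libraries, with ratios of 0.922, 0.841, 0.830 and 0.589. The log2 ratio of V exceeded the mean of chromosomes I to IV by 0.54 ± 0.39 (SD, n = 4), in 4 of 4 libraries (exact sign-flip permutation test, p = 0.125).

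**Figure D4:**
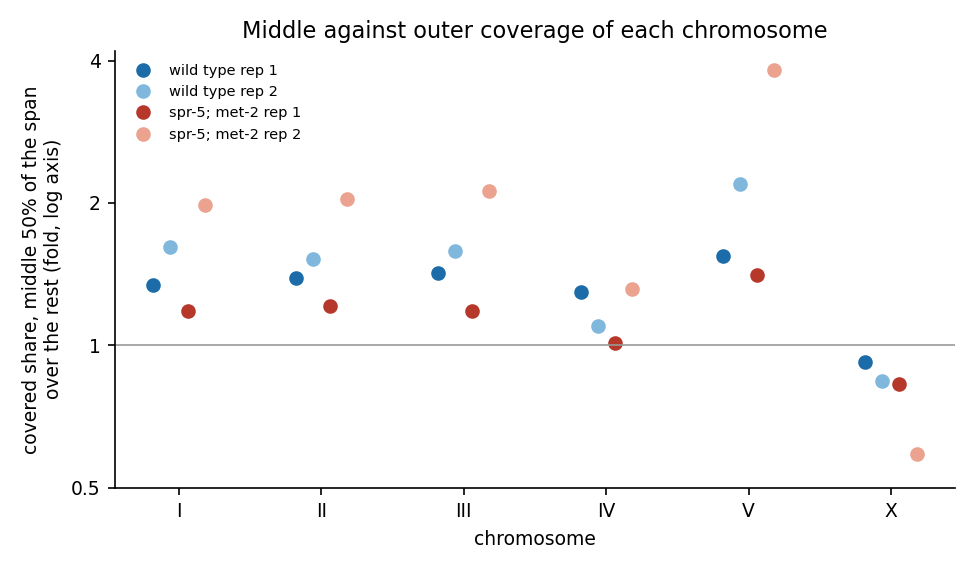
Ratio of the covered share of the middle 50% of each chromosome's span to that of the rest (log axis), 1 point per library; the grey line marks a ratio of 1. Chromosome V is the highest chromosome in each library, from 1.41 to 3.82, and the X lies below 1 in all 4.

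The comparison of genotypes asked whether the mark was divided differently over chromosome V in spr-5; met-2 progeny. Of the chromosome V bases covered by peaks, 58.8% and 65.6% lay in the centre for the wild-type replicates and 56.4% and 77.1% for the mutant ones, which gives 62.2 ± 4.79% and 66.8 ± 14.6% (SD, n = 2 each). The difference of 4.56 percentage points was smaller than the spread of the mutant libraries (exact two-sided permutation test, p = 1; the smallest p of 2 against 2 is 0.333). Its sign depended on the replicate number, at -2.40 points in replicate 1 and 11.5 points in replicate 2, and without spr-5; met-2 replicate 2 it was -5.79 points. By number of peaks, the centre held 56.3% and 56.8% for wild-type and 51.7% and 64.5% for mutant libraries, a difference of 1.56 points (exact permutation test, p = 1) that became -4.84 points without spr-5; met-2 replicate 2. The share of the whole list that lay on chromosome V differed little. By covered length it was 12.3 ± 0.126% for wild-type and 11.9 ± 0.480% for mutant libraries (SD, n = 2 each; difference -0.39 points, exact permutation test, p = 0.667), and by number of peaks 13.2 ± 0.0245% and 13.0 ± 0.358% (exact permutation test, p = 1).

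**Figure D5:**
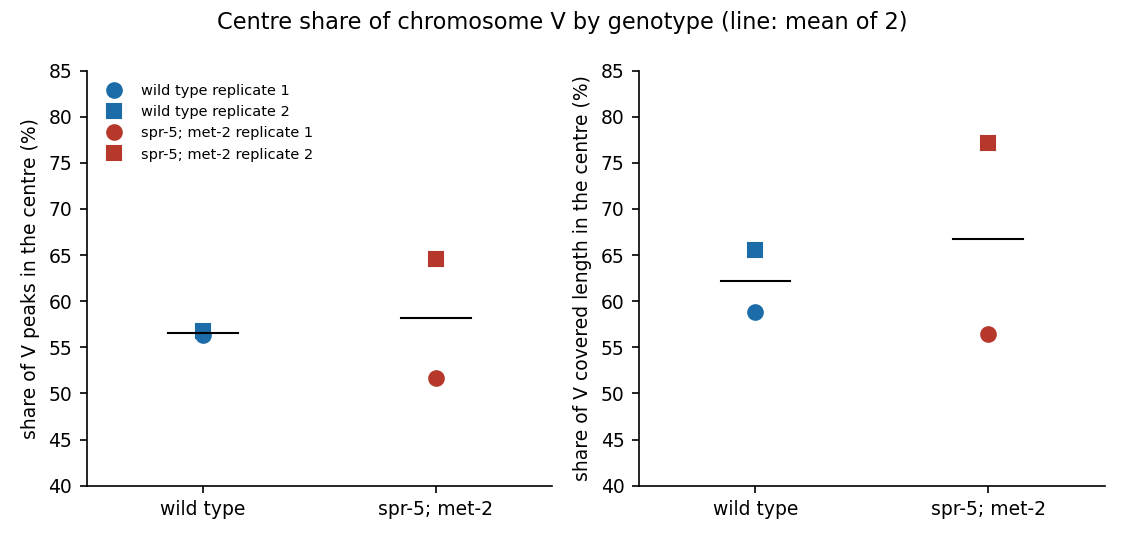
Share of the chromosome V peaks (left) and of the chromosome V covered length (right) that lies in the centre, in percent, for each of the 4 libraries, with the mean of each genotype as a line; the y axes start at 40. The 2 mutant libraries lie on both sides of the wild-type libraries, at 56.4% and 77.1% of the covered length.

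Within replicate 1, the libraries that called similar numbers of peaks, the genotypes shared 298 of the 480 central regions called in either (62.1%) and 216 of 441 arm regions (49.0%). Regions called in the wild type alone made up 18.8% of these central regions and 18.6% of these arm regions. Regions called in the mutant alone made up 19.2% in the centre (interval 15.9 to 22.9%) and 32.4% in the arms (143 of 441, interval 28.2 to 36.9%). Most of them were short, with a median width of 223 bp in the arms. Replicate 2 did not repeat this, with 12.1% in the centre (interval 8.84 to 16.4%) and 10.7% in the arms (interval 7.23 to 15.5%). There the larger share in the arms was that of regions called in the wild type alone, 60.5% (interval 53.8 to 66.8%) against 49.5% in the centre (interval 43.8 to 55.2%), and the wild-type list was the longer one. On the whole chromosome, regions called in the mutant alone made up 25.5% in replicate 1 and 11.5% in replicate 2. Those called in the wild type alone made up 18.7% and 54.2%. The same shares over the genome are not given here, so these values are not set against a general rate of the lists. With 1 library per genotype in each replicate number this has no test.

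Few regions followed genotype, that is, were called by the 2 libraries of one genotype and by no library of the other. The wild type had 15 on chromosome V (1.45% of the regions, beside 1.28% in the genome) and spr-5; met-2 had 7 (0.679%, beside 0.405%). The wild-type share was thus near that of the genome. The mutant share was above it but rests on 7 regions, with a Wilson 95% interval of 0.329 to 1.39% that includes the genome share. No test applies to either share. The wild-type ones divided into 8 in the centre and 7 in the arms and had a median width of 238 bp; the mutant ones divided into 2 and 5, with a median of 1191 bp. Leaving out any library moved at least 2 of these 4 counts by more than 1.5 times. It also loosens the rule, since a single call in its genotype, or absence from a single library for the other, then suffices. A rise in the counts thus follows from the rule and does not measure how stable the regions are. Without wild-type replicate 1 the wild-type counts (centre, arms) were 65 and 64 and the mutant counts 21 and 14. Without wild-type replicate 2 they were 88 and 81, and 4 and 6. Leaving out spr-5; met-2 replicate 1 gave 95 and 72, and 20 and 17, and leaving out spr-5; met-2 replicate 2 gave 9 and 7, and 80 and 127. In that last case the wild-type counts were thus nearly as before, as was the mutant count in the arms without wild-type replicate 2.

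Of the mutant-specific regions, that at V:4066060-4067800 in the left arm was covered most, over 1741 bp in replicate 1 and 881 bp in replicate 2. In the right arm, V:16917371-16919168 was covered over 1798 and 233 bp, V:17974134-17975324 over 1191 and 64 bp, and V:17977185-17977418 over 233 and 222 bp. The last 2 are close neighbours. V:3564080-3564690 in the left arm was covered over 611 and 157 bp. The central pair was V:7189694-7191673, over 1975 and 166 bp, and V:14418098-14419108, over 1011 and 182 bp. Apart from V:4066060-4067800 and V:17977185-17977418, the replicate 2 coverage was a small part of the replicate 1 coverage. With peaks under 2000 bp apart joined, V:7189694-7191673 and V:14418098-14419108 fell in regions called in 4 lists. The 1 central region then counted as mutant-specific was neither of them. V:17974134-17975324 and V:17977185-17977418 then fell in regions called in 3 lists, and the remaining mutant-specific ones stayed at 2.

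Of the wild-type-specific regions, the 3 with the largest mean covered length in the centre were V:14113553-14115513, with 1961 and 164 bp in replicates 1 and 2, V:11538771-11539399, with 589 and 44 bp, and V:7189327-7189693, with 245 and 193 bp. In the arms they were V:17951261-17952497, with 1237 and 58 bp, V:20840405-20840651, with 223 and 117 bp, and V:951220-951457, with 238 and 57 bp. The region V:7189327-7189693 ends on the base before the mutant-specific V:7189694-7191673 begins. These 2 regions, called in opposite genotypes, abut without overlapping, and with abutting peaks merged neither is specific and the central counts are 7 and 1. With peaks under 2000 bp apart joined, V:20840405-20840651 also fell in a region called in 4 lists, and V:951220-951457 in a region called in 3. The other wild-type-specific regions named here, apart from V:7189327-7189693, stayed at 2 lists.

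The overlap of lists was also higher in the centre. It was measured as the Jaccard index, the bases shared by 2 lists divided by the bases in either, whose largest possible value falls as the lengths of the lists differ. For the replicate 1 pair it was 0.61 in the centre and 0.54 in the arms, where up to 0.98 and 0.92 were possible. For the replicate 2 pair it was 0.21 and 0.12, of at most 0.47 and 0.26. As a share of the shorter list, the replicate 2 pair shared 54.2% in the centre and 49.4% in the arms, and the other 5 pairs shared 76.3% to 91.6% in the centre and 73.0% to 86.3% in the arms. The shorter list lay further inside the longer one in the centre than in the arms for each of the 6 pairs, which share libraries and were not tested.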

How the data were processed

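H3K36me3 ChIP-seq libraries were made from whole starved L1 larvae with an antibody to the mark and sequenced as 50 bp single-end reads, per the labels' protocols. The authors deposited 1 list of broad peaks per ChIP library, whose values are positions (unit: other) with no count, height or p. Bowtie2, deepTools, MACS2 and bedtools and the build ce10 are named in the submitters' processing notes; control, filters and threshold are not given in the sources used here. The smallest gap between peaks of a list was 1201 or 1202 bp, so nearby peaks had been joined before deposition.

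Starts were converted to 1-based. Regions are merged peaks, assigned by midpoint; coverage was clipped at the borders, and the chromosome ends were taken as the last base covered by any list (20.9 Mb for V). Regions were named by rule: the 3 widest called in all lists in the centre and in the arms, the genotype-specific ones (all, or the 3 with the largest mean covered length per part where over 8), the 3 widest called once, border neighbours, the 3 longest gaps and the extreme bins. The division, regions and tests were chosen with earlier results of these data known. Centre and arms were compared with an exact sign-flip test over libraries, genotypes with an exact permutation test over 6 assignments. The p-values measure only the spread between these libraries. The calculations were tested on simulated lists. Depth is unknown, so its effect on the number and width of peaks was not assessed. Python 3.11.15, numpy 2.4.6 and scipy 1.17.1 were used.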

Additional observations from a re-analysis of the deposited data

How the results depend on the processing

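The mean of each contrast of centre with arms, of left with right arm and of V with chromosomes I to IV kept its sign under each alternative run for it, but not its size, and single libraries reversed. These were peaks of at least 500 bp, joining of peaks under 2000 bp apart, borders moved by 0.5 Mb either way, chromosome ends left out, mean width, calling by 50% cover, each library left out, abutting peaks merged, the 248 widest V peaks of each list, the middle 50% of the span as the centre, and either replicate number alone; the last 4 kinds were chosen after seeing the data. The exact sign-flip permutation p, which is 0.125 or more with 4 libraries, rose to 0.875 for regions called by 50% cover (1.77 ± 6.27 points, 2 of 4 libraries ahead in the centre). It rose to 0.375 for width with peaks of at least 500 bp (0.11 ± 0.18) or with the 248 widest (0.26 ± 0.47), and for left against right arm with the larger centre (0.08 ± 0.18), each in 3 of 4 libraries. In spr-5; met-2 replicate 1 the arms led in regions called also with peaks of at least 500 bp, with the smaller centre, with the middle 50%, in replicate 1 alone and without either wild-type library, as did those of wild-type replicate 2 in replicate 2 alone. Joining reversed the arms in spr-5; met-2 replicate 2 (mean 0.19). With 1 library left out, the mean log2 ratio was 0.55 to 1.01 for covered share, 0.23 to 0.49 for density and 0.53 to 0.67 for width, 0.19 to 0.28 for left against right arm, and the lead in regions called was 5.56 to 7.91 points; without spr-5; met-2 replicate 2, density and covered share were lowest. In replicate 1 alone they were 0.18 and 0.39. With the 248 widest peaks the median width of wild-type replicate 1 was 2672 bp in the centre and 3170.5 bp in the arms, the opposite order to that of all its peaks. The excess of V over chromosomes I to IV in the middle of the span was 0.36 to 0.65 with 1 library left out.

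Genotype differences in the centre share ranged from -4.84 to 7.95 points (peaks) and from -5.79 to 14.9 points (covered length) with 1 library left out, and in the V share of peaks from -0.440 to 0.0659 points. In replicate 1 alone they were reversed, at -4.59, -2.40 and 0.0832 points. The replicate numbers are not stated to pair samples. Under the replicate block the covered-length difference was 4.56 points (exact test over 2 pairs, p = 1), and the other 3 kept their values. Replicate 1 minus 2 coverage (r = 0.87 between genotypes, 2093 bins) is mostly replicate 1's, so r cannot show pairing.

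Genotype-specific counts moved most (wild-type centre and arms, then mutant centre and arms). They were 0, 1, 0 and 1 with peaks of at least 500 bp and 128, 128, 93 and 135 when 1 library sufficed. Replicate 1 alone gave 91, 82, 93 and 143, and replicate 2 alone 198, 167, 63 and 33. Calling by 50% cover gave 5 in the wild-type centre and 0 and 2 in the mutant. Joining, or merging abutting peaks, gave 1 in the mutant centre. Equal numbers of widest peaks gave 3 in the wild-type arms and 6 and 2 in the mutant. Leaving out 1 library, which also loosens the rule, gave 9 to 95, 7 to 81, 4 to 80 and 6 to 127. The mean Jaccard indices, 0.23 (centre) and 0.17 (arms), were 0.61 and 0.54 for the replicate 1 pair alone and 0.17 to 0.33 and 0.095 to 0.27 with 1 library left out. Of 26 named regions, 5 were called in as many lists with peaks of at least 500 bp, and 24 with abutting peaks merged.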
